A study of Mus musculus with 96 samples.

Results

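The genes described here are the 10 genes of MHC class I antigen presentation B2m, H2-K1, H2-D1, Tap1, Tap2, Tapbp, Psmb8, Psmb9, Psmb10 and Nlrc5, chosen by symbol from the 32594 genes of the count tables and followed through every brain region, time point and treatment group. All 10 were found in both tables, and all 10 passed the filter on low counts in every one of the 6 sets of libraries. The series holds 96 bulk RNA-seq libraries from male C57BL/6 mice aged 8 to 10 weeks, namely hippocampus, thalamus and hypothalamus of the injured side at 3 and 29 days post-injury (dpi). The injury was a controlled cortical impact, a blow of a piston to the uncovered cortex, and candesartan is a blocker of the angiotensin AT1 receptor. Each region and time point had 4 groups of 4 libraries: vehicle after a sham operation (Sham + VH) or after the impact (TBI + VH), and candesartan after a sham operation (Sham + CD) or after the impact (TBI + CD). Candesartan was given at 0.1 mg/kg per day, at 3 dpi by intraperitoneal injections at 6, 24 and 48 h, and at 29 dpi by an injection at 6 h and then an osmotic pump from 24 h, with vehicle given by the same route. The route of the drug thus differed between the time points. The sham mice had anaesthesia and a scalp incision but no craniectomy, so that impact and opening of the skull cannot be told apart.

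An MHC class I molecule carries a short peptide from inside the cell to its surface, where CD8+ T cells and natural killer cells inspect it. The peptides are cut by the proteasome, and in immune-activated cells the catalytic subunits Psmb8, Psmb9 and Psmb10 are built in place of Psmb5, Psmb6 and Psmb7 to make the immunoproteasome. Tap1 and Tap2 form the pump that brings peptides into the endoplasmic reticulum, and tapasin (Tapbp) holds the pump to the empty class I molecule. H2-K1 and H2-D1 are the classical heavy chains of these mice, B2m is the light chain that all of them need to reach the surface, and Nlrc5 is the transactivator that drives transcription of the class I genes. In the healthy brain class I is best known from endothelium and microglia, with lower amounts in neurons, and interferon gamma is its classical inducer.

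Of the 10 genes, 7 lie on chromosome 17 within or next to the MHC, by GENCODE vM21 on GRCm38. H2-K1 lies at chr17:33996017-34000347, Tapbp at chr17:33915899-33929292 and H2-D1 at chr17:35262730-35267499. Psmb9 (chr17:34181987-34187764), Tap1 (chr17:34187553-34197225), Psmb8 (chr17:34197721-34201454) and Tap2 (chr17:34203527-34216321) sit side by side. Psmb9 and Tap1 point away from each other and their gene models overlap by 212 bases, and Psmb8 begins 495 bases after Tap1. B2m lies at chr2:122147686-122153083, Psmb10 at chr8:105935735-105938444 and Nlrc5 at chr8:94434356-94527272. How the counting dealt with strand and with reads that match more than one gene was not stated, so reads may have been shared between H2-K1, H2-D1 and other heavy chains, or between Tap1 and Psmb9 at their common end.

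The libraries held 6663629 to 38589791 counts. The shallowest were in the hippocampus at 29 dpi, with Sham + CD replicate 1 at 6663629 counts and Sham + VH replicate 2 at 8159341. Lists of markers for the 3 regions were highest in the region that each library is labelled with. The hippocampal list summed to 361 to 734 CPM (TMM-scaled counts per 1000000) in hippocampal libraries and to 115 to 234 CPM in the others. Sums of 10 choroid plexus genes ranged widely, and in the hippocampus at 3 dpi they stood at 6507, 4179, 178 and 4448 CPM in Sham + VH against 10.9, 147, 70.5 and 38.9 CPM in TBI + VH. The 4 best RNA samples of each group were sequenced, and regions were dissected from each brain, but the labels do not tie libraries to mice or say which regions are from the same mouse, so p-values measure the spread between these libraries.

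The heavy chains and B2m were higher in the injured hippocampus at 3 dpi in every library. Levels are CPM after TMM scaling, in the order of the replicate numbers, and log2 fold changes and standard errors (SE) are from edgeR's quasi-likelihood test on the 16 libraries of the region and time point. In this text a gene is called where the false discovery rate (FDR) over all genes tested is under 0.05 and the log2 fold change exceeds 0.32 in size. B2m stood at 54.3, 62.8, 61.8 and 61.1 CPM in Sham + VH and at 128, 99.1, 149.7 and 121 CPM in TBI + VH. The lowest injured library was thus well above the highest sham library, and the change came to 2.08-fold, or 1.05 ± 0.11 (SE) on the log2 scale (FDR = 6.16e-06, edgeR). H2-K1 was at 17.8, 20.6, 18.2 and 21.5 CPM in Sham + VH and at 49.0, 33.6, 59.6 and 41.1 CPM in TBI + VH. It rose 2.35-fold, by 1.23 ± 0.15 (SE) on the log2 scale (FDR = 1.38e-05). H2-D1 went from 16.8, 22.3, 22.5 and 22.6 CPM to 62.7, 42.0, 75.0 and 48.5 CPM. At 2.72-fold and a log2 change of 1.44 ± 0.15 (SE, FDR = 5.1e-06) it had the largest rise of these 3 surface chains. Among the injured libraries replicate 3 was highest and replicate 2 lowest for all of them.

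**Figure D1:**
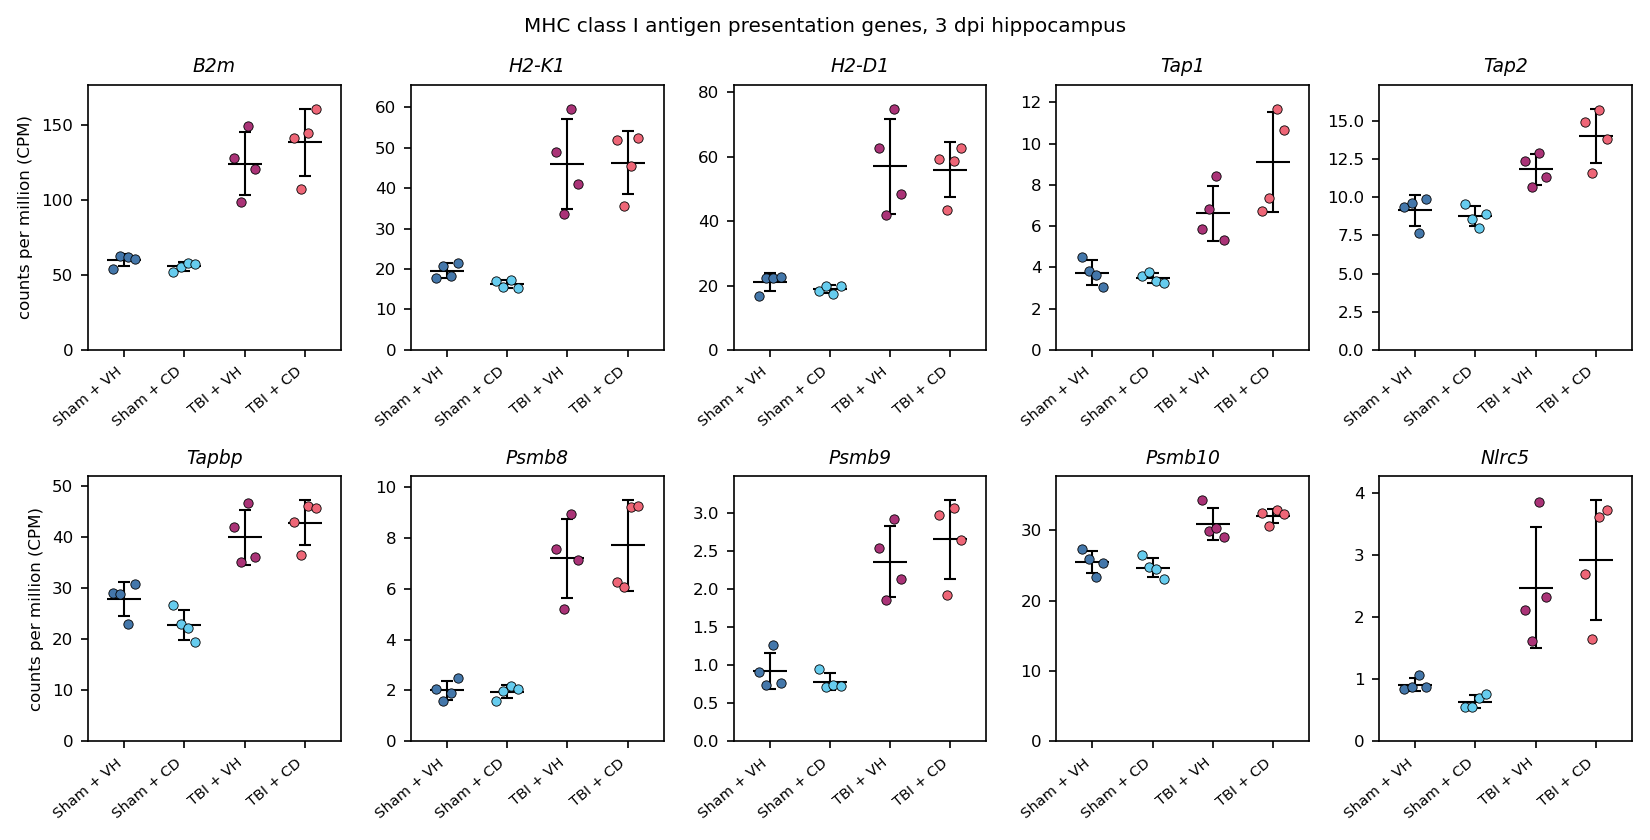
Level of each of the 10 genes in the hippocampus at 3 dpi in CPM, on a linear axis from 0, with 1 point per library, 4 libraries per group, and a bar for the mean ± SD. In every panel all TBI + VH points lie above all Sham + VH points and all TBI + CD points above all Sham + CD points, with the smallest distance for Psmb10 and Tap2.

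The sequences in front of these genes are shown because the 3 surface chains rose together, and class I promoters are known for a shared set of short elements: an interferon-stimulated element, a kappaB site, and the X2 and Y boxes of the assembly that Nlrc5 joins. The 250 bases upstream of the RefSeq start are given 5′ to 3′ on the strand of the gene, on GRCm38.p6, and windows were at hand for 8 of the 10 genes, not for Tap2 and Nlrc5. Capitals mark matches on either strand to GAAANNGAA (interferon-stimulated element), GGGNNTTNC (kappaB), TGACG (X2 core) or CCAAT (Y box, printed as ATTGG where it lies on the other strand).
The B2m window is chr2:122147437-122147686 on the plus strand, inside the Patl2 gene model on the other strand but outside its exons.
The H2-K1 window is chr17:34000348-34000597 on the minus strand, with no annotated gene.
The H2-D1 window is chr17:35262844-35263093 on the plus strand, inside an exon of a longer GENCODE model of H2-D1 itself.
The Tap1 window is chr17:34187306-34187555 on the plus strand, inside an exon of Psmb9 on the other strand.
B2m: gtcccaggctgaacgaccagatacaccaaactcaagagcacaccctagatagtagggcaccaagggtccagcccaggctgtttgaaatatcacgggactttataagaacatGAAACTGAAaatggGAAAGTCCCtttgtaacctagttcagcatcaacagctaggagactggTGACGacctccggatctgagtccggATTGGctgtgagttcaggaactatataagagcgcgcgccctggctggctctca
H2-K1: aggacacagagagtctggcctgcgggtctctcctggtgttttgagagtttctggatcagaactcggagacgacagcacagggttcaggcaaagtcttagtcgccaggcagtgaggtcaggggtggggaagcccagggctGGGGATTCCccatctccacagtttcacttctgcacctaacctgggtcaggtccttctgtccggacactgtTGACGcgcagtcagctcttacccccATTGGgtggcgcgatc
H2-D1: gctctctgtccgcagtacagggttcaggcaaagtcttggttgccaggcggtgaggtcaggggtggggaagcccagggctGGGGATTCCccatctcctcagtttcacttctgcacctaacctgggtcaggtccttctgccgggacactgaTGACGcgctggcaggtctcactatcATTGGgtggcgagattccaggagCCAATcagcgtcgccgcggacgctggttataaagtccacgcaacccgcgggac
Tap1: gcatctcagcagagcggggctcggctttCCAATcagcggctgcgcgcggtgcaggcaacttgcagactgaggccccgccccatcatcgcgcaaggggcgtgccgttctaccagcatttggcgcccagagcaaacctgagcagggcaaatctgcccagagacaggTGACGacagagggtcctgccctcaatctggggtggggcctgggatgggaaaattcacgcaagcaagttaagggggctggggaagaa

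In the windows of H2-K1 and H2-D1 the letters GGGGATTCC, TGACG and ATTGG follow each other in this order, starting 111, 41 and 16 bases before the start of H2-K1 and 171, 101 and 76 bases before that of H2-D1. B2m holds GAAACTGAA 139 bases before its start, followed by the kappaB letters on the other strand, TGACG and ATTGG. The H2-K1 and H2-D1 windows hold no match to GAAANNGAA. Other spacings of an interferon-stimulated element were not searched for, so the lack of a match does not show that such an element is absent. The Tap1 window holds only TGACG and CCAAT of these, and in the opposite order. Of the windows not printed, Psmb9 holds TGACG and CCAAT on the other strand, Tapbp holds CCAAT at 2 places, Psmb8 holds the gamma-activated letters TTCNNNGAA, and Psmb10 holds none of the 5. The Psmb8 window, chr17:34197945-34198194 on the plus strand, lies inside the GENCODE model of Psmb8 and not upstream of it. Over all 32851 windows of this length, 7.13% held GAAANNGAA, 7.02% TTCNNNGAA, 13% GGGNNTTNC, 17.8% TGACG and 33.8% CCAAT on either strand. A match describes the letters only, and no binding was measured.

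The immunoproteasome subunits rose to unequal extents. Psmb8, which takes the place of Psmb5, was at 2.07, 1.58, 1.89 and 2.49 CPM in Sham + VH and at 7.54, 5.18, 8.92 and 7.11 CPM in TBI + VH. This 3.58-fold rise, 1.84 ± 0.19 (SE) on the log2 scale (FDR = 4.34e-06), was the largest fitted change of the 10 genes in the vehicle groups. Psmb9, which takes the place of Psmb6, went from 0.918, 0.749, 1.27 and 0.768 CPM to 2.54, 1.86, 2.93 and 2.14 CPM. The groups did not overlap, and the log2 change was 1.36 ± 0.21 (SE, FDR = 0.000237). Psmb10, which takes the place of Psmb7, was at 27.3, 26.0, 23.4 and 25.3 CPM in Sham + VH and at 34.3, 29.9, 30.3 and 29.0 CPM in TBI + VH. Its groups did not overlap either, and its log2 change of 0.28 ± 0.06 (SE) had an FDR of 0.00653 but was under the fold minimum, so that it was not called.

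The constitutive proteasome core, the particle present in all cells, was read from 14 subunits. In the injured groups their median log2 changes were 0.06 and 0.09. None of the 14 was called by edgeR in either injured group, beside 8.99% of all genes called higher with vehicle and 14.4% with candesartan. A count of 0 among 14 is little below these shares. The ratio of Psmb8 to Psmb5 within a library was 0.0403, 0.0299, 0.0357 and 0.0516 in Sham + VH and 0.138, 0.0880, 0.189 and 0.135 in TBI + VH. That is a difference of 1.78 on the log2 scale, and it was 1.90 between TBI + CD and Sham + CD. The ratio of Psmb9 to Psmb6 was 0.0105, 0.00866, 0.0153 and 0.00963 in Sham + VH and 0.0278, 0.0206, 0.0337 and 0.0248 in TBI + VH, a log2 difference of 1.29, with 1.49 in the candesartan groups. The ratio of Psmb10 to Psmb7 differed by 0.24 and 0.33. Every injured library exceeded every sham library in all 6 of these comparisons, each with a 2-sided exact permutation p = 0.0286, the smallest that 4 against 4 libraries allow. Over the 36 ratio tests made in all regions and times the adjusted p was 0.147, and none passed after correction. An adjusted p under 0.05 would have needed most of the 36 tests to reach the smallest p, so the correction cannot decide on these ratios. Outside the hippocampus, the ratio of Psmb8 to Psmb5 also had no overlap in the thalamus at 3 dpi with vehicle, at 0.0312, 0.0449, 0.0276 and 0.0369 in Sham + VH and 0.0669, 0.0540, 0.0558 and 0.0524 in TBI + VH, a log2 difference of 0.72 (exact permutation p = 0.0286, adjusted p = 0.147). Per kilobase of exon, Psmb8 stood at 0.594 and Psmb9 at 0.253 CPM in the Sham + VH hippocampus, against 57.7 for Psmb5 and 46.0 for Psmb6, whereas Psmb10 at 14.95 was closer to Psmb7 at 28.6.

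**Figure D2:**
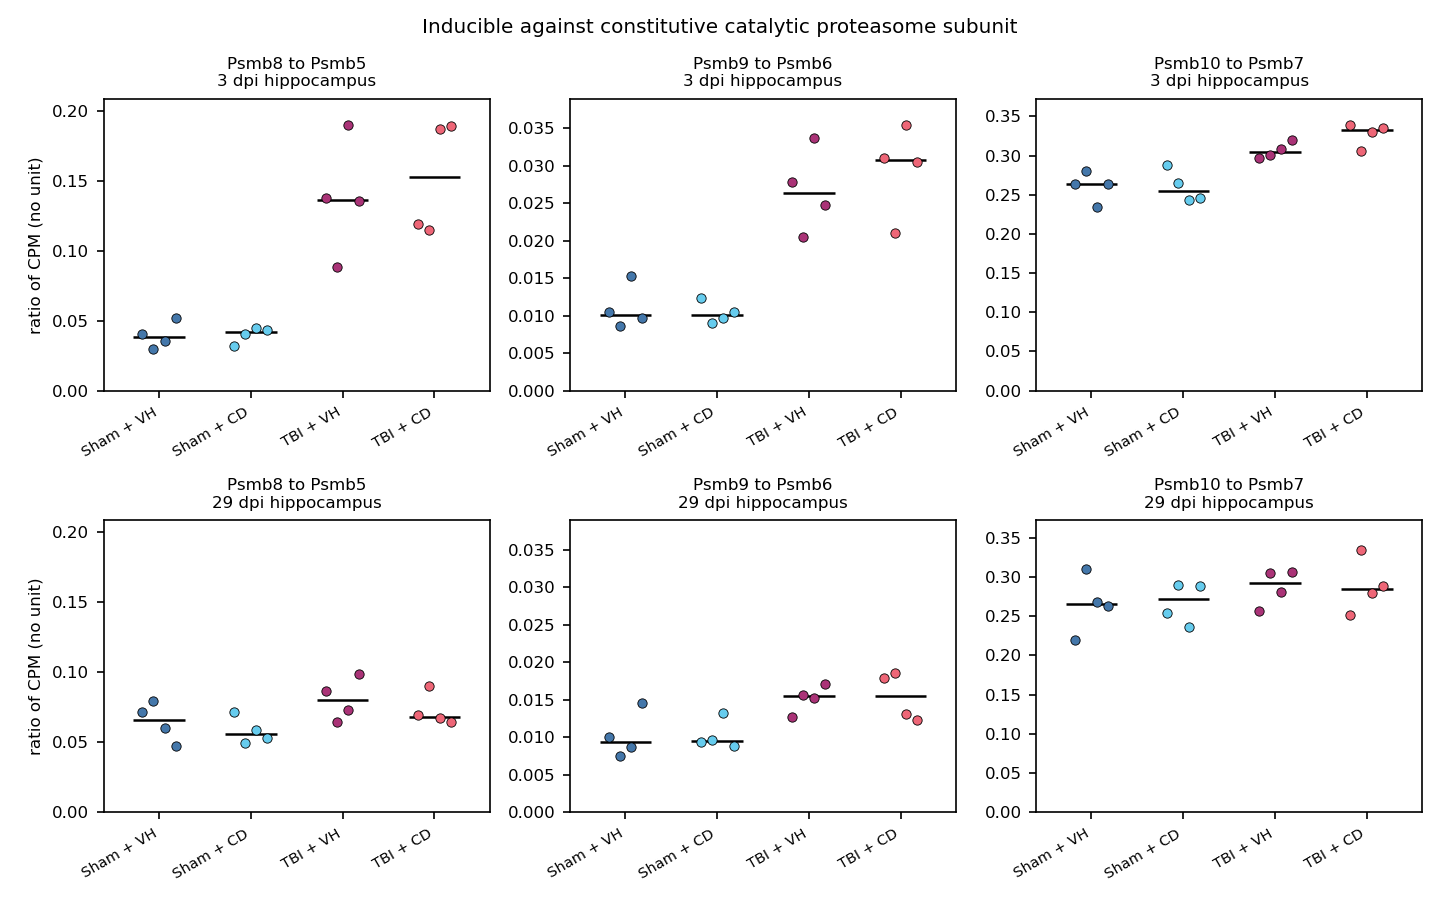
Ratio of each immunoproteasome subunit to the constitutive subunit it replaces, for hippocampal libraries of 3 and of 29 dpi, with 1 point per library and a line at the median of each group of 4. At 3 dpi the points of both injured groups lie above those of both sham groups for all 3 ratios, and at 29 dpi the injured and sham groups overlap for Psmb8 to Psmb5.

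Peptide transport and loading genes were also higher in the injured hippocampus, with smaller fitted changes than the surface chains in the vehicle groups, a difference that was not tested. Tap1 was at 4.51, 3.83, 3.61 and 3.04 CPM in Sham + VH and at 5.87, 6.85, 8.41 and 5.34 CPM in TBI + VH. The groups did not overlap, and the log2 change was 0.82 ± 0.18 (SE, FDR = 0.00496). Its partner Tap2 went from 9.34, 9.65, 7.67 and 9.91 CPM to 12.4, 10.7, 12.9 and 11.3 CPM, a log2 change of 0.37 ± 0.11 (SE, FDR = 0.0244) that was little above the fold minimum. Without Sham + VH replicate 3 it was 0.30, without TBI + VH replicate 1 it was 0.35 and without TBI + VH replicate 3 it was 0.33, and in these 3 fits Tap2 was no longer called. Tapbp went from 29.0, 28.9, 23.04 and 30.8 CPM to 42.0, 35.2, 46.7 and 36.1 CPM, with a log2 change of 0.52 ± 0.11 (SE, FDR = 0.00362).

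The transactivator Nlrc5 was scarce in sham tissue. It stood at 0.838, 0.873, 1.07 and 0.878 CPM in Sham + VH and at 2.12, 1.61, 3.86 and 2.32 CPM in TBI + VH. The injured libraries spread more than the sham libraries, with replicate 3 at the top, yet none came down to the sham range, and the log2 change was 1.45 ± 0.28 (SE, FDR = 0.0016). Over the 10 genes, 9 were called higher in TBI + VH, beside 8.99% of the 16756 genes tested. The median log2 change was 1.14, beside -0.01 over all genes tested. All 10 had every injured library above every sham library, which held for 11.6% of all genes.

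The injury comparison was repeated between the candesartan groups, which share no library with the vehicle groups. B2m stood at 51.7, 55.3, 58.4 and 57.6 CPM in Sham + CD and at 142, 107.5, 145 and 161 CPM in TBI + CD. H2-D1 went from 18.4, 19.9, 17.4 and 19.9 CPM to 59.2, 43.5, 58.6 and 62.8 CPM. H2-K1 went from 16.9, 15.5, 17.3 and 15.4 CPM to 51.8, 35.5, 45.5 and 52.5 CPM. No injured library came near the sham range for these surface chains, and TBI + CD replicate 2 was the lowest injured library for 9 of the 10 genes. The log2 changes were 1.32 ± 0.12 for B2m, 1.57 ± 0.16 for H2-D1 and 1.51 ± 0.15 for H2-K1 (SE, FDR = 4.27e-07, 1.45e-06 and 1.31e-06). Nlrc5 had the largest change, from 0.547, 0.561, 0.694 and 0.767 CPM to 2.70, 1.66, 3.62 and 3.73 CPM, or 2.18 ± 0.30 (SE, FDR = 3.3e-05) on the log2 scale. Psmb8 rose from 1.60, 1.96, 2.18 and 2.05 CPM to 6.24, 6.07, 9.21 and 9.26 CPM, by 1.98 ± 0.20 (SE, FDR = 1.35e-06). Psmb9 rose by 1.75 and Tap1 by 1.39, Tapbp by 0.91, Tap2 by 0.68 and Psmb10 by 0.38 on the log2 scale, all with no overlap between the groups.

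All 10 genes were called higher in TBI + CD against Sham + CD, beside 14.4% of all genes, with a median log2 change of 1.45. The groups did not overlap for any of the 10, beside 17.8% of all genes. All 10 remained called when any 1 library was left out. Against the Sham + VH group, TBI + CD also had all 10 called higher, beside 10.3% of all genes, with a median of 1.27. Psmb10 was just above the fold minimum there, at 0.33, and it was no longer called without Sham + VH replicate 3 (0.29) or without the filter on low counts (0.32). That comparison shares the Sham + VH libraries with the vehicle comparison and TBI + CD with the candesartan one.

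Candesartan itself moved none of the 10 genes past the test at 3 dpi. In TBI + CD against TBI + VH, 0 of the 10 were called by edgeR, and 0% of all genes, 2 of the 10 had an unadjusted p under 0.05, and DESeq2 called 0. Of the 10 differences 9 were positive with a median of 0.13. Tap1 had the largest, with 6.76, 7.38, 11.7 and 10.7 CPM in TBI + CD beside the TBI + VH values above, a log2 difference of 0.47 ± 0.18 (SE, FDR = 0.999 in edgeR), and all 10 pairs of groups overlapped. In Sham + CD against Sham + VH, 0 of the 10 were called by edgeR, beside 1.5% of all genes called, 1 was at an unadjusted p under 0.05, and DESeq2 called 0 of them. All 10 differences were negative, from -0.51 to -0.05. For H2-K1 and Nlrc5 every Sham + CD library was below every Sham + VH library, 2 of the 10 beside 4.61% of all genes. Choroid plexus sums differed between these groups too, and with a score for them as a covariate Tap2 was at 0.07 while the other 9 differences stayed negative, from -0.60 to -0.01, again with none called. The interaction of injury and candesartan was positive for all 10, from 0.10 to 0.73, but 0 of the 10 and 0% of all genes passed an FDR of 0.05 in edgeR, where 2 of the 10 were at an unadjusted p under 0.05. Tapbp had the lowest interaction FDR, with 0.39 on the log2 scale (FDR = 0.293 in edgeR). A larger rise under candesartan was therefore not shown.

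Markers of some cell types rose with these genes in the hippocampus at 3 dpi, and those of others did not. All 10 microglial markers were called higher in TBI + VH with a median log2 change of 1.65, among them Csf1r at 1.36 and C1qa at 2.19, and their sum was 348 to 378 CPM in Sham + VH and 1202, 774, 1219 and 956 CPM in TBI + VH. In TBI + CD it was 948, 891, 1311 and 1254 CPM. In both injured groups the library with the lowest microglial sum, replicate 2, was also the lowest for most of the 10 genes. The sum of 8 markers of monocytes and border macrophages was 10.5 to 17.7 CPM in Sham + VH and 143, 38.1, 135 and 99.0 CPM in TBI + VH, with 4 of 7 tested called higher, such as Lyz2 at 3.68 and Ccr2 at 3.81. The sum of the astrocyte list was 3782 to 4567 CPM in Sham + VH and 7090 to 9303 CPM in TBI + VH. Most of this rise was in Gfap, with means of 332 and 4093 CPM. Slc1a2, with means of 2588 and 2719 CPM, was not called, and Slc1a3 and Aqp4 were called higher at 0.39 and 1.45. The 12 markers of T and NK cells were at or near 0, summing to 0.164 to 0.624 CPM in Sham + VH and 0.368 to 0.583 CPM in TBI + VH, with Cd3d, Cd8b1, Gzma and Ncr1 at 0 in all 4 TBI + VH libraries. Among endothelial markers, Kdr was called lower in TBI + VH at -0.75, while Flt1 at -0.37, Slco1a4 at -0.29 and Ly6c1 at 0.17 were not called. In TBI + CD, Ly6c1 was called higher at 0.45, and Kdr at 0.01, Flt1 at 0.03 and Slco1a4 at 0.09 were not. The neuronal Snap25, Syt1 and Map2 were at -0.22, -0.15 and -0.11 in TBI + VH, not called. In TBI + CD, Snap25 at -0.34 and Syt1 at -0.32 were called lower, and Map2 at -0.24 was not. The part of these cell types in the result was not tested, and in bulk tissue more cells of a type cannot be told apart from more RNA per cell.

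Choroid plexus content also differed between Sham + VH and TBI + VH, and all 10 of its markers were called lower in the injured hippocampus. With a score for it as a covariate, 6 of the 10 class I genes were called instead of 9. Tap1 was then at 0.64 ± 0.27 (SE, FDR = 0.258), Tap2 at 0.51 ± 0.15 (SE, FDR = 0.0774), and Nlrc5 at 1.36 ± 0.41 (SE, FDR = 0.0814). The candesartan comparison had low choroid plexus sums, 43.6 to 93.5 CPM in Sham + CD and 14.7 to 148 CPM in TBI + CD apart from replicate 1 at 2579 CPM, and all 10 genes were called there with and without that library.

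Other genes around the pathway were read from lists, each injured group set against the sham group of the same drug, for which 8.99% of all genes with vehicle and 14.4% with candesartan were called higher. Of 17 further class I heavy chains and related genes, 10 had enough counts to be tested at 3 dpi, and 4 were called higher in TBI + VH and 8 in TBI + CD, with medians of 0.60 and 1.01. H2-T23, which encodes the ligand of inhibitory NK receptors, changed by 0.71 (FDR = 0.0191) in TBI + VH and 1.31 in TBI + CD. H2-Q4 changed by 1.26 (FDR = 0.000612) and 1.69, and H2-Q7 by 2.43 (FDR = 0.00235) and 2.57. Fcgrt, the class I-like receptor that recycles antibodies, was at 0.30 (FDR = 0.109) and Mr1, which presents vitamin metabolites, at 0.00 in TBI + VH. Both were called higher in TBI + CD, at 0.74 and 0.75. Of 6 genes of peptide loading and trimming, 0 were called by edgeR in TBI + VH. In TBI + CD 3 of the 6 were called, where Calr, Erap1 and Pdia3 rose by 0.33, 0.60 and 0.36. Of 5 proteasome activators and assembly factors, only Psme1 was called, in TBI + CD at 0.41.

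Among 15 genes of transcription and signalling upstream of class I, 3 were called higher in TBI + VH beside 8.99% of all genes, and 6 in TBI + CD beside 14.4%. Irf8, a factor of the myeloid lineage, rose by 1.85 (FDR = 1.74e-06) and 2.05, and Ciita, the class II relative of Nlrc5, by 1.99 (FDR = 0.0468) and 2.52. Irf9, part of the complex that answers type I interferon, rose by 0.63 and 0.91. Irf1, a transcription factor that interferon gamma induces, was at 0.33 (FDR = 0.143) in TBI + VH and 0.47 in TBI + CD. The receptor chain Ifngr1 rose by 0.76 and 1.03, whereas its partner Ifngr2 stayed at -0.03 in TBI + VH. The ligands themselves were hardly counted: Ifnb1 was at 0 in every hippocampal library, and Ifng at 0 in all 4 libraries of Sham + CD and of TBI + VH at 3 dpi. Of 7 tested genes that interferon gamma classically induces, 6 were called in both injured groups, with Gbp2 at 1.84 and 2.30, Irgm1 at 1.28 and 1.68, and Cxcl10 at 2.67 (FDR = 0.0299) and 4.40. 

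At 29 dpi the surface chains were still above sham in the vehicle hippocampus, by smaller amounts. B2m was at 75.8, 72.7, 72.3 and 78.3 CPM in Sham + VH and at 93.1, 85.0, 97.0 and 103 CPM in TBI + VH. H2-K1 went from 24.2, 17.98, 15.6 and 18.4 CPM to 26.7, 30.8, 30.2 and 32.1 CPM, and H2-D1 from 24.5, 19.7, 21.6 and 22.3 CPM to 34.0, 31.5, 38.6 and 42.0 CPM. None of these 3 overlapped between the groups. The log2 changes were 0.34 ± 0.06 for B2m (SE, FDR = 0.0102), 0.65 ± 0.12 for H2-K1 (SE, FDR = 0.0154) and 0.72 ± 0.09 for H2-D1 (SE, FDR = 0.000513). These were the 3 of 10 genes called, beside 0.523% of the 16832 genes tested, and the 3 without overlap stood beside 2.5% of all genes. Without TBI + VH replicate 4, the highest injured library for 7 of the 10 genes, only H2-D1 was called.

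The immunoproteasome and Nlrc5 were not called at 29 dpi. Psmb8 was at 2.49, 3.25, 1.99 and 2.12 CPM in Sham + VH and at 3.35, 2.27, 3.04 and 3.78 CPM in TBI + VH, with a log2 difference of 0.40 ± 0.18 (SE, FDR = 0.572) and overlapping groups. Nlrc5 was at 1.41, 0.749, 0.785 and 0.289 CPM and at 0.713, 1.57, 1.48 and 2.79 CPM, with a difference of 0.92 ± 0.42 (SE, FDR = 0.598). Psmb9 was at 0.69 and Tapbp at 0.28, while Tap1 at 0.23, Psmb10 at 0.17 and Tap2 at 0.02 were nearer to 0. All 10 differences were positive, with a median of 0.37, and 7 had an unadjusted p under 0.05.

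**Figure D3:**
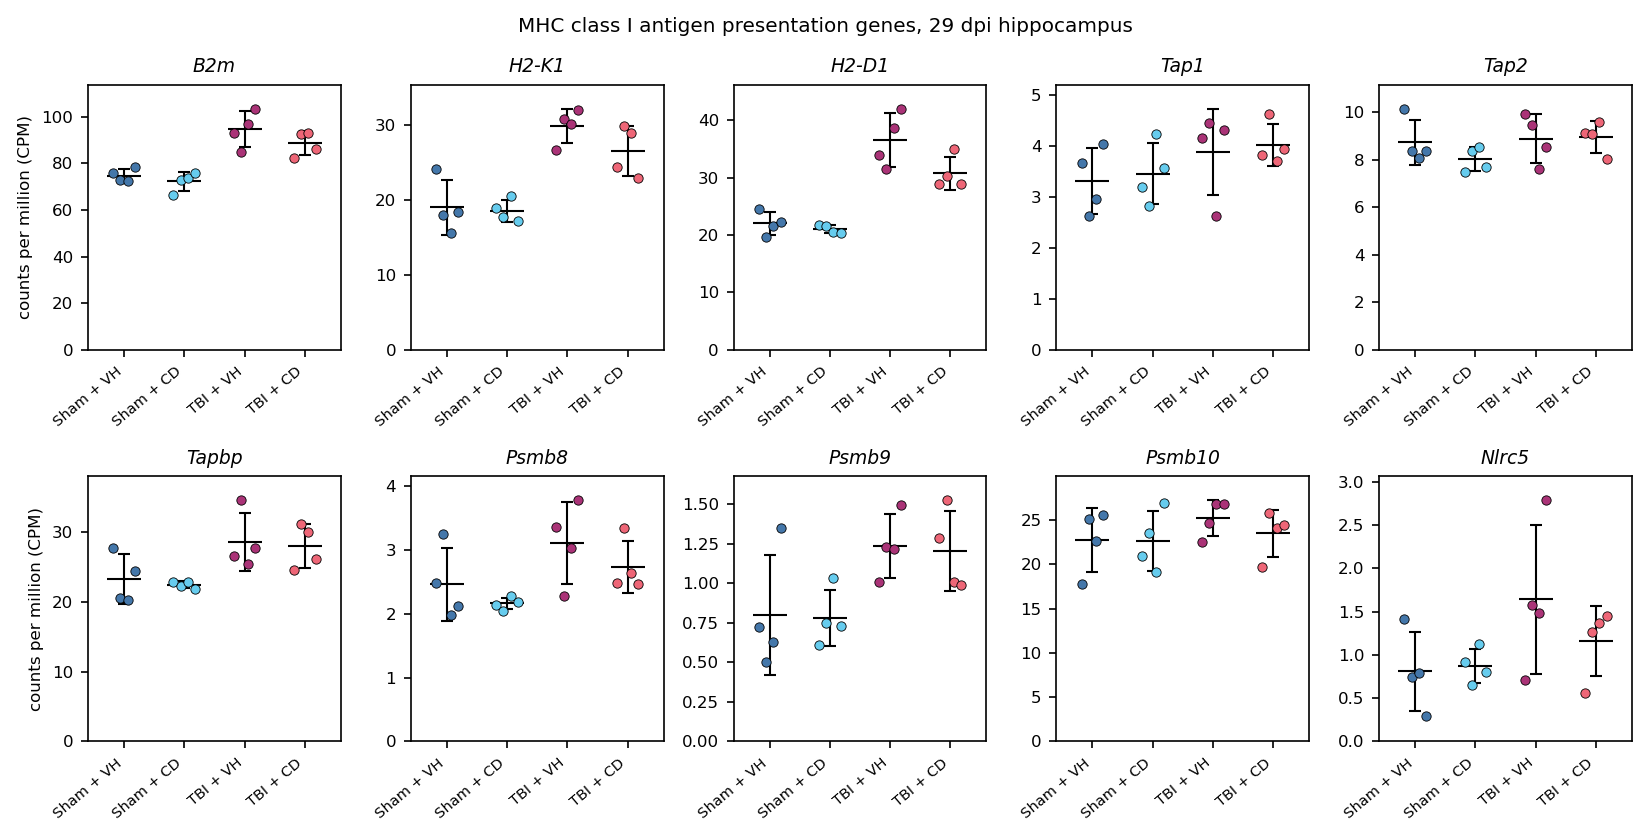
Level of each of the 10 genes in the hippocampus at 29 dpi in CPM, on a linear axis from 0, with 1 point per library, 4 libraries per group, and a bar for the mean ± SD. B2m, H2-K1 and H2-D1 lie higher in both injured groups without overlap with the sham group of the same drug, and the Psmb8, Tap1 and Nlrc5 panels show overlapping points in the vehicle groups.

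In the candesartan groups at 29 dpi, H2-D1 was at 21.7, 21.6, 20.6 and 20.3 CPM in Sham + CD and at 28.9, 30.2, 35.0 and 28.8 CPM in TBI + CD. It was the 1 gene of the 10 called, at 0.55 ± 0.09 (SE, FDR = 0.00927), beside 0.351% of all genes. Without Sham + CD replicate 4 it was not called (FDR = 0.0526), and without TBI + CD replicate 1 or 4, or with DESeq2, 2 of the 10 were. B2m, from 66.4, 73.0, 73.9 and 76.0 CPM to 82.5, 92.6, 93.2 and 86.3 CPM, and H2-K1, from 18.9, 17.8, 20.5 and 17.2 CPM to 24.4, 29.9, 28.9 and 22.99 CPM, did not overlap but had FDRs of 0.0522 and 0.0772. With Tapbp and Psmb8, 5 of the 10 genes had no overlap, beside 4.76% of all genes. Against Sham + VH, 0 of the 10 were called in TBI + CD by edgeR, beside 0.113% of all genes, where 5 had an unadjusted p under 0.05 and DESeq2 called 1.

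Candesartan gave no call among the 10 genes in the hippocampus at 29 dpi. In TBI + CD against TBI + VH, 0 of the 10 and 0% of all genes were called by edgeR, 1 of the 10 was at an unadjusted p under 0.05, and DESeq2 called 0. Of the 10 differences 8 were negative, and H2-D1 came nearest to a call, at -0.25 ± 0.09 (SE, FDR = 0.882 in edgeR). In Sham + CD against Sham + VH, 0 of the 10 and 0% of all genes were called by edgeR, 0 of the 10 had an unadjusted p under 0.05, and DESeq2 called 0. The interaction was likewise called for 0 of the 10 and 0% of all genes, with 0 of the 10 at an unadjusted p under 0.05.

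The injury change was tested for a difference between 3 and 29 dpi in 1 fit of the hippocampal libraries. It was larger at 3 dpi by 0.71 ± 0.14 for B2m (SE, FDR = 0.00197), by 1.42 ± 0.27 for Psmb8 (SE, FDR = 0.00153) and by 0.72 ± 0.19 for H2-D1 (SE, FDR = 0.0264), the 3 of 10 genes called, beside 3.19% of all genes. The H2-D1 call was lost in 6 of the fits that left out 1 library. The cohorts of the 2 times also differ in the route by which vehicle or drug was given. The microglial sum at 29 dpi was 333 to 381 CPM in the 4 Sham + VH libraries, 452 to 509 CPM in TBI + VH and 384 to 453 CPM in TBI + CD, with 5 of 10 microglial markers called higher in TBI + VH. The sum of monocyte and border macrophage markers was 10.1 to 19.0 CPM in Sham + VH and 39.5 to 59.6 CPM in TBI + VH, with Lyz2 called at 2.67 on the log2 scale. The part of these cells in the result was not tested.

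In the thalamus and the hypothalamus none of the 10 genes was called at either time. In the thalamus at 3 dpi this was 0 of 10 by edgeR in TBI + VH against Sham + VH, with 2 at an unadjusted p under 0.05, beside 0.298% of all genes called. There Psmb8 was at 1.51, 1.98, 1.32 and 1.58 CPM in Sham + VH and at 3.00, 2.47, 2.33 and 2.40 CPM in TBI + VH. These groups did not overlap, and the log2 difference was 0.67 ± 0.17 (SE, FDR = 0.178). B2m was at 57.6, 41.9, 53.0 and 53.0 CPM and at 69.0, 66.1, 58.9 and 59.5 CPM, a difference of 0.30 (FDR = 0.635). In TBI + CD against Sham + CD, 0 of 10 were called and 5 were at an unadjusted p under 0.05, beside 0.167% of all genes called, with Nlrc5 at 0.639, 0.464, 0.540 and 0.367 CPM in Sham + CD and at 1.11, 0.966, 1.38 and 1.02 CPM in TBI + CD (log2 difference 1.14 ± 0.29, SE, FDR = 0.188). TBI + CD against Sham + VH gave 0 of 10 with 3 at an unadjusted p under 0.05, beside 0.418% of all genes. The microglial markers did rise in these libraries, with 9 of 10 called higher in TBI + VH and 6 of 10 in TBI + CD, and a sum of 286 to 336 CPM in Sham + VH against 404 to 521 CPM in TBI + VH.

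In the hypothalamus at 3 dpi 0 of 10 and 0% of all genes were called by edgeR in each injury comparison, and no more than 2 of the 10 had an unadjusted p under 0.05. H2-K1 in the vehicle groups had the lowest unadjusted p, at 21.6, 20.2, 20.8 and 26.4 CPM in Sham + VH and at 29.7, 33.1, 26.6 and 26.4 CPM in TBI + VH, with a log2 difference of 0.38 (FDR = 0.99996). At 29 dpi 0 of 10 were called by edgeR in any injury comparison of the thalamus, beside 0% of all genes, or of the hypothalamus, beside 0.00583% of all genes with vehicle and 0% with candesartan. The members at an unadjusted p under 0.05 were at most 3 per comparison. DESeq2 called 0 of the 10 in each comparison of these regions. Candesartan within sham or within injured mice gave 0 of 10 and 0% of all genes in both regions and at both times, with at most 2 of the 10 at an unadjusted p under 0.05.

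**Figure D4:**
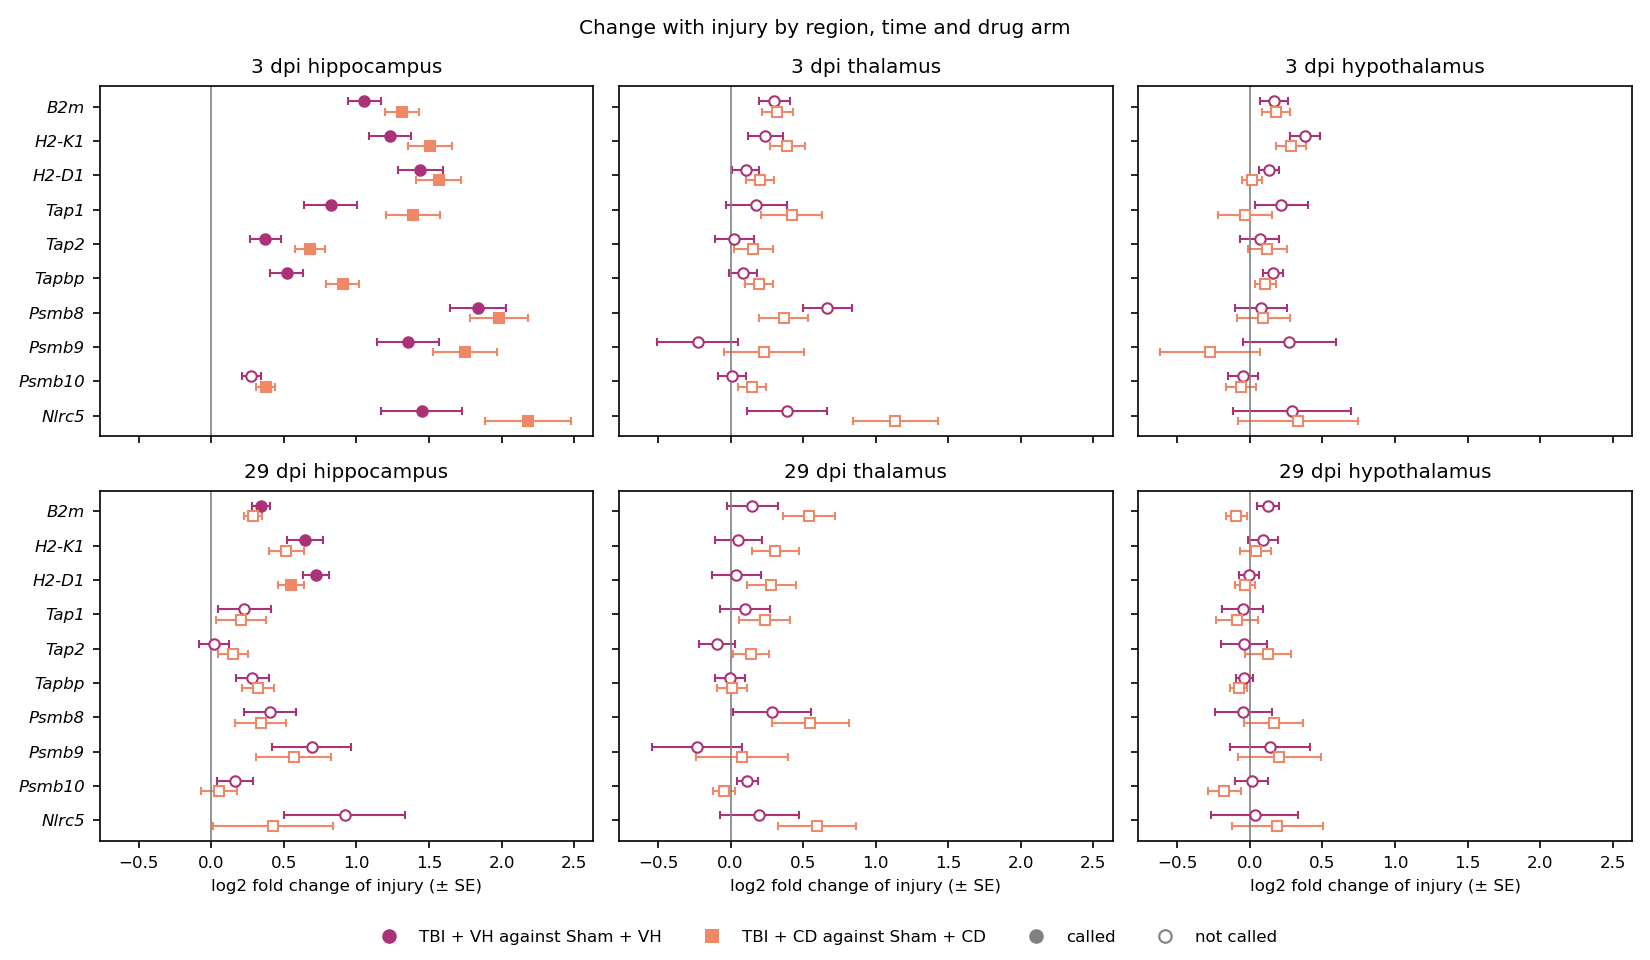
Log2 fold change ± SE of the 10 genes with injury in the 3 regions at 3 and 29 dpi, for TBI + VH against Sham + VH (circles) and TBI + CD against Sham + CD (squares), with filled symbols for called genes. Filled symbols stand only in the 2 hippocampal panels, where Psmb10 in TBI + VH is the 1 open symbol at 3 dpi.

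A fit over the 48 libraries at 3 dpi, which treats regions as independent, tested whether the vehicle injury change differed between regions. The hippocampal change exceeded the thalamic one by 0.73 ± 0.15 for B2m (SE, FDR = 0.00206), 0.97 ± 0.18 for H2-K1 (SE, FDR = 0.000571), 1.31 ± 0.17 for H2-D1 (SE, FDR = 1.41e-06), 1.15 ± 0.25 for Psmb8 (SE, FDR = 0.00323) and 1.56 ± 0.39 for Psmb9 (SE, FDR = 0.0108). These 5 of 10 stood beside 4.06% of all genes called. It exceeded the hypothalamic change by 0.87 for B2m, 0.84 for H2-K1, 1.29 for H2-D1 and 1.75 for Psmb8, 4 of 10 beside 6.16% of all genes. Between thalamus and hypothalamus 0 of 10 and 0% of all genes were called by edgeR, where 459 genes had an unadjusted p under 0.05.

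One thalamic library at 29 dpi stood apart for these genes. TBI + CD replicate 4 was the highest of its group for 9 of the 10, with B2m at 67.4, 68.5, 89.7 and 147 CPM, H2-D1 at 31.6, 37.8, 41.8 and 67.0 CPM, and Psmb8 at 1.93, 1.95, 2.61 and 5.21 CPM in replicates 1 to 4. The same library had the highest sums of microglial markers (312, 328, 404 and 690 CPM), of monocyte and border macrophage markers (18.8, 16.1, 19.8 and 57.6 CPM) and of choroid plexus markers (55.5, 70.1, 86.6 and 1428 CPM). The sums of T and NK markers (0.483, 0.260, 0.416 and 0.798 CPM) and of astrocyte markers (2849, 2833, 3294 and 4020 CPM) were also highest in it. The part of these in its values was not tested. B2m differed between TBI + CD and Sham + CD by 0.54 ± 0.18 (SE, FDR = 0.426), and by 0.24 ± 0.09 (SE, FDR = 0.547) without that library. Psmb8 differed by 0.55, and by 0.13 without it.

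Without injury or drug, some of the genes differed between regions. In Sham + VH at 3 dpi the mean of H2-D1 was 22.4 ± 3.01 CPM in hippocampus, 35.7 ± 2.12 CPM in thalamus and 43.5 ± 1.83 CPM in hypothalamus (SD, n = 4 each, 48 libraries scaled together), and at 29 dpi it was 23.2, 35.7 and 48.3 CPM. The hippocampus was below the thalamus by 0.67 (FDR = 6.71e-06) and below the hypothalamus by 0.95 (FDR = 3.55e-09) on the log2 scale at 3 dpi. H2-K1, its close relative, had means of 20.8, 19.6 and 20.8 CPM at 3 dpi and was not called between any of the 3 regions at that time. B2m, at 64.0, 51.9 and 59.6 CPM, differed between hippocampus and thalamus with an FDR of 0.0188, but its log2 difference of 0.30 was under the fold minimum. Tapbp was at 29.8, 28.7 and 40.1 CPM and Tap2 at 9.74, 8.87 and 12.5 CPM, both called lower in hippocampus and thalamus than in hypothalamus.

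At 3 dpi 2 of 10 genes were called between hippocampus and thalamus, beside 40.9% of all genes, 3 between hippocampus and hypothalamus, beside 46.7%, and 4 between thalamus and hypothalamus, beside 28.6%. At 29 dpi the counts were 3, 4 and 6, beside 39.3%, 45% and 32.9%. For the comparisons with the hippocampus the members' shares were below those of all genes. Called in both cohorts in the same direction were H2-D1, lower in the hippocampus than in both other regions, Tap1, higher in the hippocampus than in the thalamus, Tap2 and Tapbp, lower in the hippocampus than in the hypothalamus, and Tap1, Tap2, Tapbp and Psmb8, lower in the thalamus than in the hypothalamus. Several of these calls at 3 dpi were lost when 1 library was left out. For Tap1 between hippocampus and thalamus (FDR = 0.0324) these were hippocampal replicates 1 and 2 and thalamic replicates 1, 3 and 4. For Tap2 between hippocampus and hypothalamus the log2 difference of -0.36 was -0.28 without hippocampal replicate 3 and -0.23 without hypothalamic replicate 4, and it was then not called. Between thalamus and hypothalamus Tap1 lost its call without thalamic replicate 1 or 4 or hypothalamic replicate 3 or 4, and Psmb8 without thalamic replicate 1, 3 or 4 or hypothalamic replicate 4. Nlrc5 was at 0.849, 0.642 and 1.34 CPM at 29 dpi and was called between thalamus and hypothalamus there, but not without thalamic replicate 1 or 4. Per kilobase of exon, in the hippocampus of Sham + VH at 3 dpi, B2m was at 69.8 CPM, followed by Psmb10 at 14.95, H2-D1 at 8.16, Tapbp at 7.70, H2-K1 at 6.66, Tap2 at 2.42, Tap1 at 0.684, Psmb8 at 0.594, Psmb9 at 0.253 and Nlrc5 at 0.108.

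**Figure D5:**
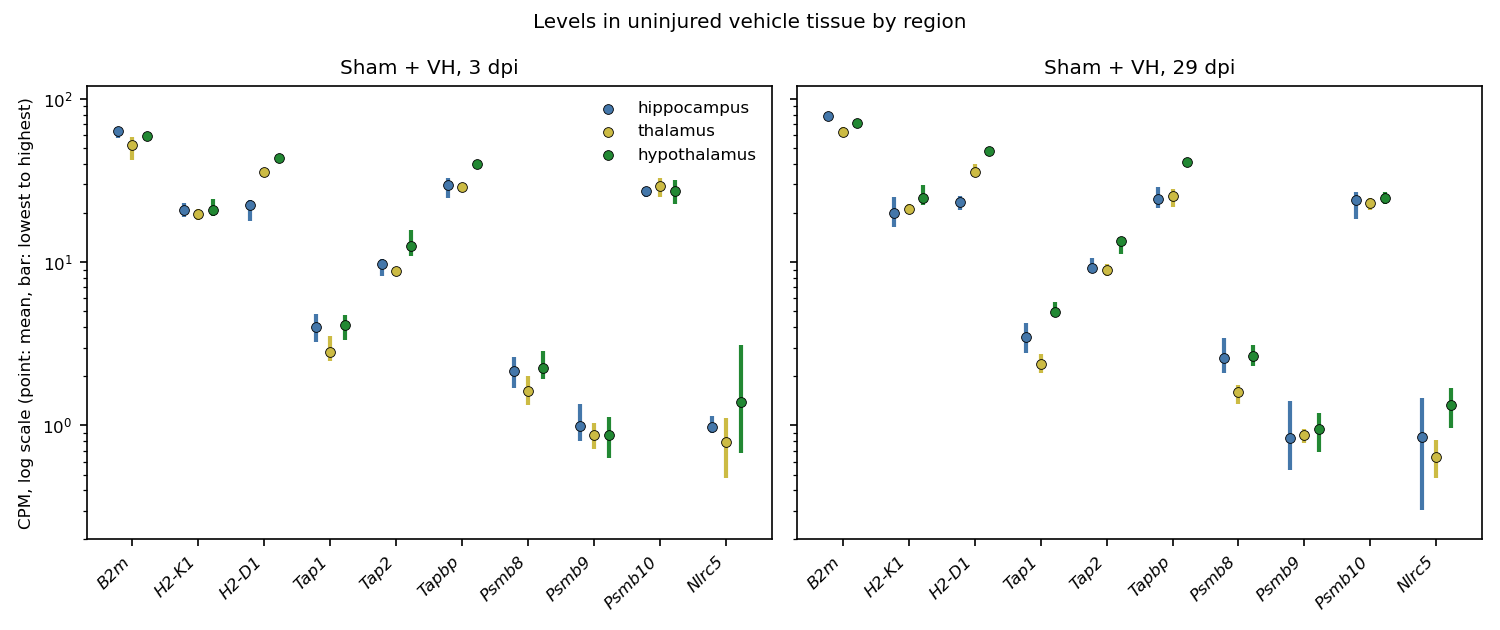
Level of the 10 genes in Sham + VH in CPM, on a log axis, for the 3 regions at 3 and 29 dpi, with a point at the mean of 4 libraries and a bar from the lowest to the highest. The H2-D1 mean rises from 22.4 CPM in the hippocampus to 43.5 CPM in the hypothalamus at 3 dpi, while the H2-K1 means lie between 19.6 and 20.8 CPM.

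The 10 genes varied together in the hippocampus at 3 dpi. Over its 16 libraries, which include the injured ones, the 45 pairs of genes had Pearson correlations of log2 CPM from 0.835 to 0.988 with a median of 0.908. At 29 dpi they ran from -0.378 to 0.942 with a median of 0.490. All pairs share the libraries, their depth and the injury groups. Over the 48 libraries of each time point, after removal of region means, the genes most like the mean of the 10 at 3 dpi were Tnfrsf1a (0.967), a receptor of tumour necrosis factor, the lysosomal protease Ctsh (0.962), the integrin subunit Itgb5 (0.961), Scamp2 (0.958), Tmem176a (0.956), the peroxiredoxin Prdx6 (0.955), the protease Ctsz (0.954) and Hexa (0.954), a subunit of lysosomal hexosaminidase, of 12219 genes. At 29 dpi they were Ctsz (0.827), Prdx6 (0.819), Pros1 (0.810), the complement component C4b (0.804), Gpnmb (0.801), the complement inhibitor Serping1 (0.800), Ctsh (0.799) and Pttg1ip (0.795), of 12157 genes. Ctsz, Prdx6 and Ctsh are named at both times.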

How the data were processed

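Total RNA of ipsilateral hippocampus, thalamus and hypothalamus was sequenced from stranded mRNA libraries. The 4 samples per group with the best RNA were chosen by the authors. The authors aligned the reads to mm10 with MapSplice and counted them with HTSeq 0.9.1, and the deposited values are raw counts for 32594 gene symbols, of which 63 rows repeat a symbol and 7369 (3 dpi) and 7312 (29 dpi) are at 0 in all libraries. The annotation and the strand setting are not given in the sources used here. All columns were matched to a library by their labels, and no replicates were identical.

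Each region and time point (16 libraries, 4 groups of 4) was fitted by itself with edgeR 4.0.16 under R 4.3.3: filterByExpr, TMM, and the 2-sided quasi-likelihood test with Benjamini-Hochberg adjustment over all genes tested. A call needed an FDR under 0.05 and a log2 fold change above 0.32 in size, and interactions needed the FDR alone. Region differences used 48 libraries per time. Ratios of proteasome subunits, with 0.5 added to both counts, were compared by 2-sided exact permutation tests over the 70 divisions of 8 libraries. Neighbour genes were the 8 with the highest Pearson correlation among genes that averaged 5 CPM or more. Alternatives were DESeq2 1.42.0, other scaling, no filter, FDR alone, only the groups compared, a replicate block, a choroid plexus covariate and leaving out each library. The scripts were tested on simulated data. The genes, the lists and the naming of all 10 members were chosen with earlier results of these data known. Figures were drawn with matplotlib 3.10.9, and tables made in Python 3.11.15 with pandas 2.3.3, scipy 1.17.1 and numpy 2.4.6. Positions are from GENCODE vM21 and promoter windows from RefSeq, GRCm38.p6. The values of 1 gene of the upstream list are not reported here.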

Additional observations from a re-analysis of the deposited data

Results flagged for a closer look

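The injury change in the vehicle groups differed between regions or times, by a test of the difference itself, for 12 results. At 3 dpi the hippocampal log2 change exceeded the thalamic one by 0.73 for B2m, 0.97 for H2-K1, 1.31 for H2-D1, 1.15 for Psmb8 and 1.56 for Psmb9. It exceeded the hypothalamic one by 0.87 for B2m, 0.84 for H2-K1, 1.29 for H2-D1 and 1.75 for Psmb8. In the hippocampus the change at 3 dpi exceeded that at 29 dpi by 0.71 for B2m, 0.72 for H2-D1 and 1.42 for Psmb8.

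In 16 of 240 groups of 4 libraries, the highest or lowest library lay further from the others than Dixon's test allows, for 1 of the 10 genes. Chance alone flags about 1 in 20 groups in this test, a rate close to the one seen. In the hippocampus at 3 dpi these were H2-D1 at 16.8 CPM in Sham + VH, below the others, and Psmb9 at 0.958 CPM in Sham + CD, above them. In the thalamus at 3 dpi it was Tap2 at 9.82 CPM in Sham + CD. In the hypothalamus at 3 dpi Nlrc5 reached 3.33 CPM in Sham + VH and Tapbp 51.7 CPM in TBI + VH, Psmb9 reached 1.17 CPM in Sham + CD, and low values were H2-K1 at 18.7 CPM and Tapbp at 39.5 CPM in Sham + CD and Psmb8 at 1.41 CPM in TBI + CD. At 29 dpi the hippocampus had Tap2 at 10.2 CPM in Sham + VH, above the others, and Tap1 at 2.63 CPM in TBI + VH, below them. The thalamus had H2-D1 at 39.98 CPM in Sham + VH, and H2-K1 at 40.5 CPM and Nlrc5 at 1.60 CPM in TBI + CD replicate 4, the library with high microglial and choroid plexus sums. The hypothalamus had Tap1 at 6.06 CPM, above the others, and Tap2 at 11.8 CPM, below them, in Sham + VH.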

How the results depend on the processing

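No log2 fold change of the 10 genes changed sign under any alternative among those that were called, and 42 of 965 recomputed values of called genes lost their call. At 3 dpi the hippocampal counts were 9 and 10 of 10 with DESeq2, as in edgeR, and with a library left out 8 to 9 with vehicle and 10 between the candesartan groups (9 to 10 for TBI + CD against Sham + VH, and 9 without the count filter). The counts that moved by over 1.5 times were few. In the hippocampus at 29 dpi, TBI + VH against Sham + VH gave 1 call instead of 3 with only the libraries of these 2 groups, and 1 to 3 with a library left out (1 without the injured replicate 4, 2 without the sham replicate 2, 3 or 4). TBI + CD against Sham + VH gave 1 instead of 0 with DESeq2 and without the count filter, and 0 to 2 with a library left out, 2 of them without Sham + VH replicate 1. TBI + CD against Sham + CD gave 2 instead of 1 with DESeq2 and with only the 2 groups, and 0 to 2 with a library left out (0 without Sham + CD replicate 4, 2 without TBI + CD replicate 1 or 4). Sham + VH thalamus against hypothalamus at 3 dpi gave 2 to 5 instead of 4 with a library left out. The ratio differences of the hippocampus stayed positive with a library left out, where an exact test cannot go below p = 0.0571. Several in the other regions changed sign there, such as Psmb8 to Psmb5 in the hypothalamus at 3 dpi with vehicle, from -0.06 to 0.23. With the replicate number as a block, 41 of 42 counts did not move and 1 became 4 instead of 3 (Sham + VH hippocampus against thalamus, 29 dpi). Of 24 same-numbered pairs per set, 7 to 17 had deviations correlated above 0.1, never all of them, so the numbers were not used as pairs. The mean correlation was nevertheless 0.17 against -0.06 for other numbers in the thalamus at 3 dpi and in the hypothalamus at 29 dpi, and 0.01 to 0.05 in the other 4 sets. Depth limits Nlrc5 and Psmb9 most, with as few as 3 counts of Nlrc5 in a 29 dpi hippocampal library. The causes of these moves were not tested.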

Other observations

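In the hippocampus, 2 Sham + VH libraries at 29 dpi held higher sums of markers of a neighbouring region than the others of their group. The thalamic marker list stood at 54.6, 156, 52.3 and 66.8 CPM and the hypothalamic list at 5.54, 0.624, 96.3 and 0.674 CPM in replicates 1 to 4. Their part in the values of the 10 genes was not tested.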
